A study of Homo sapiens with 36 samples.

Results

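Keratins of simple epithelia were read here as a set of 7 genes chosen by name, KRT7, KRT8, KRT18, KRT19, KRT23, KRT80 and KRT81, in A549 cells exposed to cigarette smoke extract (CSE). Each gene was read from a transcript cluster, the group of probes that the array joins for 1 gene, that carries its symbol alone. This gave 6 genes of the 18417 that could be named in the series; KRT81 had no such cluster and is not analysed here. KRT18 had 2 clusters and was read from the brighter one.

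A549, an established line from an adenocarcinoma of the human lung, keeps some features of alveolar type II cells; it is a single line, with no primary cells beside it. RNA was hybridised to 36 Human Gene 1.0 ST arrays in 12 groups of 3. Cells were left unexposed (control) or received CSE at 1%, 5% or 10%, and each of these 4 exposures was sampled after 1, 3 and 5 weeks. After a day without serum, exposed cells were kept in DMEM with 1% serum and CSE, which was renewed daily, and cultures were passaged weekly. CSE was made by drawing the smoke of Marlboro cigarettes through medium, and the undiluted extract was taken as 100%. The study calls the 3 arrays of a group individual experiments. The spread behind each p-value is that between such experiments within a group, pooled over all 12 groups.

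Keratins are the intermediate filament proteins of epithelial cells and assemble only as pairs of a type I and a type II chain. KRT8 (type II) and KRT18 (type I) are the primary pair of single-layered epithelia, including the alveolar epithelium. KRT7 (type II) and KRT19 (type I) are added to it in ducts, glands and airways. KRT80 (type II) and KRT23 (type I) are less studied chains, and KRT81 is a type II keratin of hair. The filaments anchor at desmosomes through desmoplakin and carry mechanical load, and their loss beside a gain of vimentin is a usual sign of change towards a mesenchymal state.

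Values are on a log2 scale, where a step of 1 is a doubling, and differences were tested with limma in 1 fit to all arrays, with a gene called changed at an adjusted p under 0.05 over all 33297 transcript clusters. Each cluster has its own probes, so no test compares levels between genes, and where levels of different genes are set side by side this only describes the arrays. Array medians ran from 6.72 to 6.91. The 5-week controls stood apart: the standard deviation of values within an array was 2.15 to 2.21 on these 3 arrays and 2.25 to 2.31 on the other 33. Their titles and codes give 5 weeks while their free-text descriptions give 3 weeks. Each 5-week difference of a keratin from control is therefore also given against the 6 controls of weeks 1 and 3. Those controls had been in culture for less time, so in these comparisons exposure and time in culture cannot be told apart. Of 6 measured epithelial markers, 3 lay in the brightest 25% of clusters (CDH1 at a mean of 11.02, EPCAM at 9.95 and ELF3 at 9.72), and 5 lay above the median cluster. Of 8 alveolar type II markers 3 lay above the median cluster, ETV5 (8.92), ABCA3 (8.57) and SFTPD (7.20), the first pair in the brightest 25%, while the other 5, SFTPC (6.14) and NKX2-1 (5.57) among them, lay below it. Of the markers of other cells, 1 of 8 for fibroblasts, 0 of 5 for endothelium and 1 of 5 for leukocytes lay above the median cluster.

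The 6 keratins did not move as 1 block. KRT8 and KRT18 both fell slightly with CSE 10% at every week, and with CSE 5% at 3 and 5 weeks, the calls at 1 and 3 weeks being lost when the arrays were centred on housekeeping genes. KRT7 did not pass the test at 1 week and fell at every concentration at 3 and 5 weeks, by up to 2.10-fold. KRT19 was higher with CSE 1% at 1 and 3 weeks and lower with CSE 10% at 3 and 5 weeks, the fall at 3 weeks being lost under the same centring. KRT80 was higher with every concentration at 1 week, and KRT23 passed the test against the 5-week controls alone, unless the arrays were centred in that way.

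**Figure D1:**
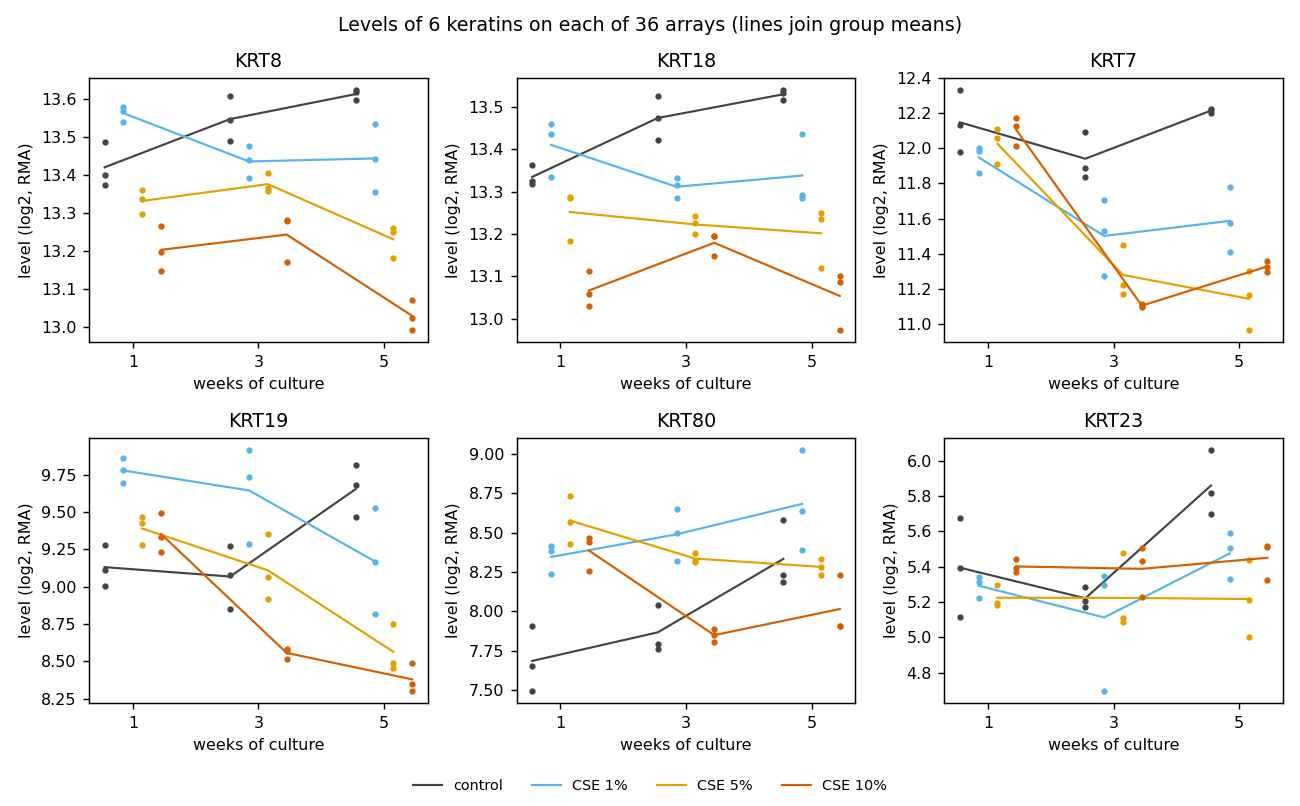
Levels of 6 keratins (log2, vertical axes with a scale of their own) at 1, 3 and 5 weeks, 1 point per array, 3 arrays per group; lines join the means of control (black), CSE 1% (blue), CSE 5% (orange) and CSE 10% (red). KRT7 means lie between 11.95 and 12.15 in all groups at 1 week and the exposed groups lie at 11.50 or lower at 3 weeks; the control means of KRT19, KRT23 and KRT80 are higher at 5 weeks (9.65, 5.86 and 8.33) than at 3 weeks (9.07, 5.22 and 7.87).

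At 1 week, 2 of the 6 keratins were higher with CSE 1% and 0 lower, while 3.41% of all clusters were called higher and 1.90% lower. With CSE 5%, 1 was higher and 0 lower, against 5.99% and 4.84% of all clusters. With CSE 10%, 1 was higher and 2 were lower, against 8.27% and 8.44%. The median difference of the 6 keratins was 0.11, -0.09 and -0.02 with CSE 1%, 5% and 10%, beside -0.03, -0.03 and -0.02 over all clusters.

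At 3 weeks, CSE 1% gave 2 higher keratins and 1 lower one, where 5.67% and 5.81% of all clusters were called. CSE 5% gave 1 higher and 3 lower (9.70% and 9.93% of all clusters). CSE 10% gave 0 higher and 4 lower (14.0% and 12.5%). Centring the arrays on housekeeping genes, described with KRT8 and KRT18, left 1 of these 4 lower, KRT7, and KRT23 was then called higher. The median of the 6 differences was -0.11, -0.08 and -0.30, beside -0.0042, -0.043 and 0.013 over all clusters.

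At 5 weeks, against the controls of the same week, 1 keratin was higher and 5 were lower with CSE 1%, but 20.3% of all clusters were called higher and 33.5% lower. With CSE 5%, 0 were higher and 5 lower (23.0% and 40.3% of all clusters), and with CSE 10%, 0 were higher and 6 lower (21.9% and 39.6%). Against the controls of weeks 1 and 3 the counts were 1 higher and 1 lower with CSE 1% (7.86% and 7.43% of all clusters), 1 and 4 with CSE 5% (13.1% and 13.0%) and 0 and 4 with CSE 10% (15.0% and 16.0%). Housekeeping centring added KRT80 and KRT23 as higher with CSE 10% against the earlier controls. The keratins' medians were -0.29, -0.51 and -0.53 against the 5-week controls and 0.02, -0.23 and -0.40 against the earlier ones. The corresponding medians over all clusters were -0.14, -0.17 and -0.17, and -0.0042, -0.017 and -0.011. All these comparisons within a week, and those of week 5 with the earlier controls, share control arrays.

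**Figure D2:**
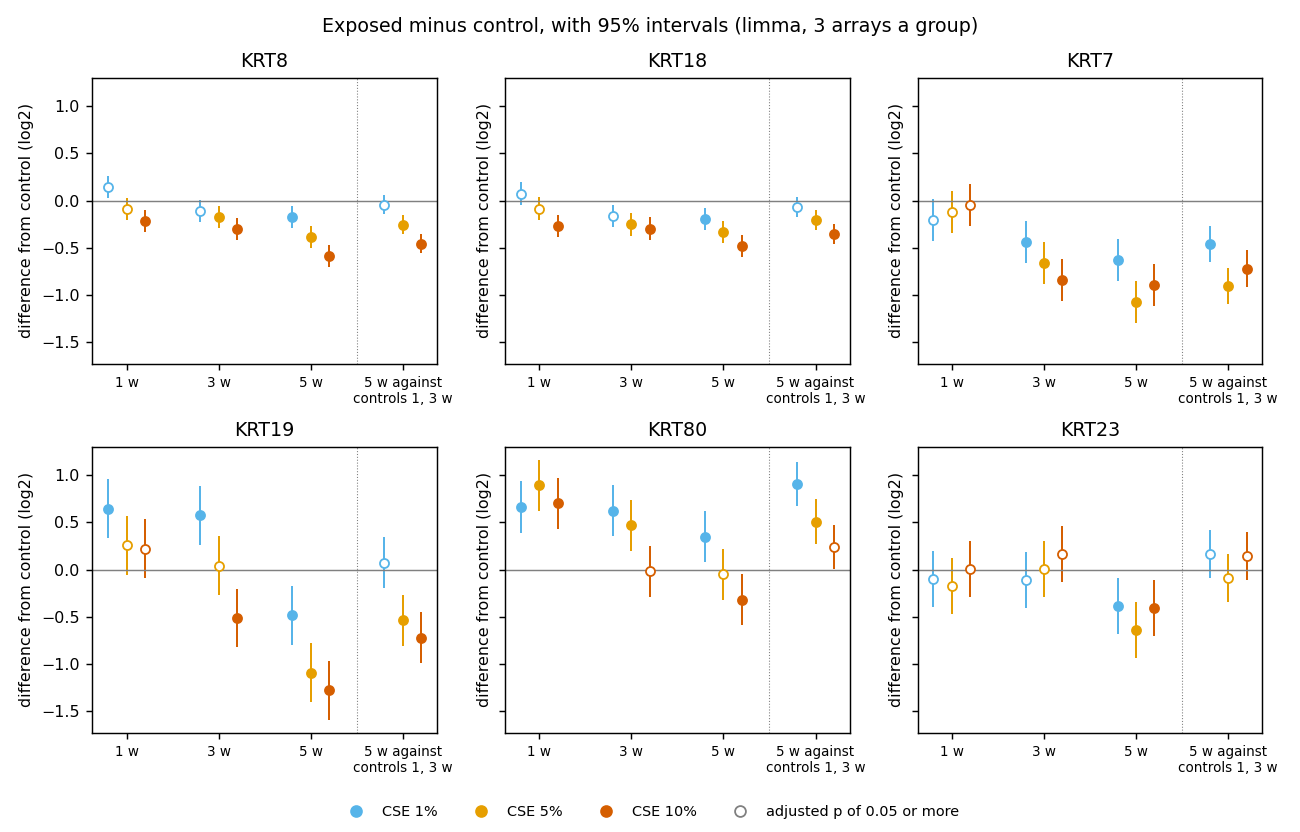
Differences between exposed and control cells (log2) for 6 keratins at CSE 1% (blue), 5% (orange) and 10% (red), at 1, 3 and 5 weeks against the control of the same week and, right of the dotted line, at 5 weeks against the controls of weeks 1 and 3; bars are 95% intervals and open points did not pass an adjusted p of 0.05. KRT7 falls by 0.44 to 0.84 at 3 weeks, KRT19 at CSE 10% goes from 0.22 to -0.51 and -1.27 over the weeks, and the KRT23 points are filled only against the 5-week controls.

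KRT8 and KRT18, the chains of the primary pair, lay near the top of the range of the arrays, whose highest value was 14.49. KRT8 was at 13.37, 13.40 and 13.49 in control cells at 1 week, 13.54, 13.61 and 13.49 at 3 weeks, then 13.62, 13.60 and 13.62 at 5 weeks. With CSE 10% it was at 13.27, 13.15 and 13.20 at 1 week, 13.28, 13.28 and 13.17 at 3 weeks, then 12.99, 13.02 and 13.07 at 5 weeks. Every CSE 10% array thus lay below every control array of its week.

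The difference of KRT8 from control with CSE 10% was -0.22 at 1 week (standard error 0.057, adjusted p = 0.00695), -0.30 at 3 weeks (adjusted p = 0.000151) and -0.58 at 5 weeks (adjusted p = 2.8e-09), the last a 1.50-fold decrease. Against the controls of weeks 1 and 3 the 5-week difference was -0.45 (adjusted p = 2.78e-08). CSE 5% gave -0.09 at 1 week (adjusted p = 0.366), -0.17 at 3 weeks (adjusted p = 0.0319) and -0.38 at 5 weeks (adjusted p = 2.85e-06), or -0.25 against the earlier controls (adjusted p = 0.000251). With CSE 1%, KRT8 did not pass at 1 week (0.14, adjusted p = 0.162) or 3 weeks (-0.11, adjusted p = 0.257), and the 5-week value of -0.17 (adjusted p = 0.0144) was -0.04 against the earlier controls (adjusted p = 0.671). In bulk RNA, fewer cells of a kind and less RNA per cell cannot be told apart.

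KRT18 was at 13.32, 13.36 and 13.32 in control cells at 1 week, 13.48, 13.53 and 13.42 at 3 weeks, then 13.54, 13.53 and 13.52 at 5 weeks. With CSE 10% it was at 13.11, 13.03 and 13.06, then 13.19, 13.15 and 13.20, then 12.97, 13.10 and 13.09. The CSE 10% arrays again lay below all controls of their week. Its differences with CSE 10% were -0.27 (standard error 0.058, adjusted p = 0.00108), -0.29 (adjusted p = 0.000258) and -0.48 (adjusted p = 1.14e-07) at 1, 3 and 5 weeks, and -0.35 at 5 weeks against the earlier controls (adjusted p = 3.02e-06).

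With CSE 5%, KRT18 was not called at 1 week (-0.08, adjusted p = 0.41) and fell by 0.25 at 3 weeks (adjusted p = 0.00189) and by 0.33 at 5 weeks (adjusted p = 2.51e-05), or by 0.20 against the earlier controls (adjusted p = 0.00287). CSE 1% gave 0.08 and -0.16 at 1 and 3 weeks (adjusted p = 0.526 and 0.0682) and -0.19 at 5 weeks (adjusted p = 0.00707), which was -0.07 against the earlier controls (adjusted p = 0.436). The second KRT18 cluster, between 12.64 and 13.36, was lower with CSE 10% by 0.38 at 1 week (adjusted p = 4.93e-05), 0.41 at 3 weeks (adjusted p = 1.49e-05) and 0.50 at 5 weeks (adjusted p = 2.84e-07). With CSE 1% at 5 weeks, where the brighter cluster passed, it did not (-0.13, adjusted p = 0.0823). KRT8 and KRT18 have processed copies elsewhere in the genome, and whether their probes also read those was not tested.

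The falls of the pair at 1 and 3 weeks depend on the scaling of the arrays. Centring the arrays on the changes of 17 housekeeping genes raised the difference of every cluster by 0.10 with CSE 10% at 1 week and by 0.14, 0.21 and 0.25 with CSE 1%, 5% and 10% at 3 weeks. With CSE 10%, KRT8 was then at -0.12 at 1 week (adjusted p = 0.268) and -0.06 at 3 weeks (adjusted p = 0.471), and KRT18 at -0.17 (adjusted p = 0.0783) and -0.05 (adjusted p = 0.541). With CSE 5% at 3 weeks KRT8 turned to 0.04 (adjusted p = 0.692) and KRT18 was at -0.04 (adjusted p = 0.672). At 5 weeks it raised differences by 0.03, 0.03 and 0.11, and both genes still passed with CSE 5% and 10% against the controls of that week. Against the controls of weeks 1 and 3, where it raised differences by 0.13, 0.13 and 0.20, the CSE 5% values were -0.13 for KRT8 (adjusted p = 0.102) and -0.08 for KRT18 (adjusted p = 0.342). GPI and GUSB, which are 2 of these 17 genes, were also among the 3 genes whose levels were most like those of KRT18.

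Single arrays also decided the smaller falls of KRT8. With CSE 10% at 1 week the call was lost without control replicate 3 (adjusted p = 0.0573) or CSE replicate 2 (adjusted p = 0.0523). With CSE 5% at 3 weeks it was lost without control replicate 1 or 2 (adjusted p = 0.0649 and 0.16) or CSE replicate 1 or 3 (adjusted p = 0.0968 and 0.0941). With CSE 1% at 5 weeks it was lost without CSE replicate 3 (adjusted p = 0.0963). No call of KRT18 against control was lost by leaving out 1 array.

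The 2 chains followed each other over the 36 arrays, with Pearson's r of 0.93 and Spearman's rho of 0.94. The points share cultures, groups and normalization, so this is a description. On each array KRT8 minus KRT18 lay between -0.08 and 0.23, with a within-group standard deviation of 0.049. The group mean of this difference was highest with CSE 5% at 3 weeks and CSE 1% at 1 week (0.15 for each) and lowest with CSE 10% at 5 weeks (-0.02). Among all named genes, KRT18 was the most like KRT8, before PLXND1 and SPDEF (r of 0.92 for both). For KRT18 the nearest were GPI, CARS2 and GUSB (0.94, 0.94 and 0.93).

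**Figure D3:**
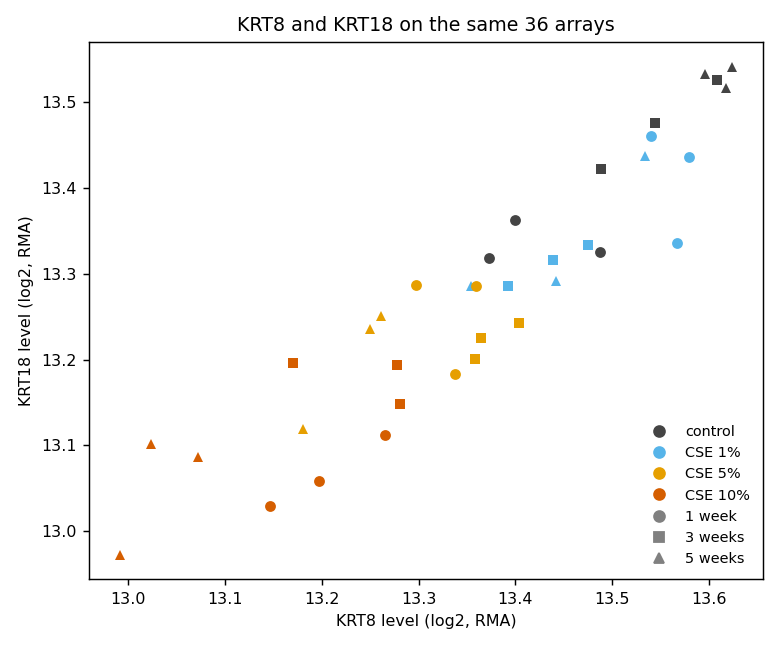
KRT8 level (horizontal axis, log2) against KRT18 level (vertical axis, log2) on 36 arrays, coloured by exposure, with circles for 1 week, squares for 3 weeks and triangles for 5 weeks. The 5-week controls lie at the upper right (KRT8 at 13.61, KRT18 at 13.53 on average) and the CSE 10% arrays of 5 weeks at the lower left (13.03 and 13.05).

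Of the 6 genes, KRT8 was the one with a sequence around its start in the RefSeq tables used here, and it is printed for that reason. The window lies within the KRT8 locus of these tables, away from both ends of that locus (52897191 and 52949860). Its activity was not measured, nor whether A549 cells use this start. It runs 5′ to 3′ on the minus strand, from 250 bases before to 50 after the start the table gives, at chr12:52926420-52926719 of GRCh38.p14.
KRT8: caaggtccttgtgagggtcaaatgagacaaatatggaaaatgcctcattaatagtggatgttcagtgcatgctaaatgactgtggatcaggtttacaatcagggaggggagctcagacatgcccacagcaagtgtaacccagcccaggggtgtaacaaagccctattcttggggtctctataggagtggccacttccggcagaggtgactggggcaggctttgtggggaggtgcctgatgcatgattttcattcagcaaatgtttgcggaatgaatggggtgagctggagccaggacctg
No letters are in capitals because none of 5 motifs searched on both strands was found. These were AP-1 (TGANTCA, in 7.71% of 35116 promoter windows of this length), the GC box (GGGCGG, 45%), the TATA box (TATAAA, 11.5%), the core of the xenobiotic response element (GCGTG, 36.5%) and the antioxidant response element (TGACNNNGC, 13.3%). This says only that these letters are not in this window.

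KRT7, the type II chain added in glandular and ductal epithelia, was called at 3 and 5 weeks and not at 1 week. Control cells were at 11.98, 12.13 and 12.34 at 1 week, 11.89, 12.09 and 11.84 at 3 weeks, then 12.22, 12.20 and 12.22 at 5 weeks. At 1 week the exposed arrays lay within 11.86 to 12.17 and overlapped the controls at each concentration. The differences were -0.20, -0.12 and -0.04 with CSE 1%, 5% and 10% (adjusted p = 0.337, 0.541 and 0.85). The 95% interval with CSE 10% ran from -0.27 to 0.18.

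At 3 weeks KRT7 was at 11.27, 11.53 and 11.70 with CSE 1%, 11.17, 11.45 and 11.22 with CSE 5%, and 11.10, 11.11 and 11.10 with CSE 10%. No exposed array reached the lowest control. The fall was 1.79-fold with CSE 10% (-0.84, standard error 0.11, adjusted p = 7.91e-07). The log2 difference from the controls was -0.66 with CSE 5% (adjusted p = 3.54e-05) and -0.44 with CSE 1% (adjusted p = 0.00586). The call with CSE 1% was lost without control replicate 2 (adjusted p = 0.0545) or CSE replicate 1 (adjusted p = 0.0744).

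At 5 weeks KRT7 was at 11.78, 11.57 and 11.41 with CSE 1%, 11.30, 10.96 and 11.16 with CSE 5%, and 11.32, 11.36 and 11.30 with CSE 10%, below all 9 controls. It fell by 0.63, 1.07 and 0.89 against the controls of the same week (adjusted p = 4.3e-05, 5.49e-09 and 1.28e-07). Against those of weeks 1 and 3 it fell by 0.46, 0.90 and 0.72 (adjusted p = 0.000765, 1.35e-08 and 7.41e-07). The step from 1 to 3 weeks was itself tested: the effect of CSE 10% at 3 weeks was lower than that at 1 week by 0.79 (adjusted p = 0.000828), and that of CSE 5% by 0.54 (adjusted p = 0.0468), a call lost without any 1 of 8 of the 12 arrays (adjusted p from 0.0643 to 0.161). The genes most like KRT7 over the 36 arrays, in level, were S100P, DESI1 and IMP4 (r of 0.96, 0.95 and 0.94).

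KRT19, the smallest keratin and a type I chain of ducts and airways, was called higher in some comparisons with control and lower in others. In control cells it was at 9.00, 9.11 and 9.28 at 1 week, 8.85, 9.27 and 9.08 at 3 weeks, then 9.82, 9.46 and 9.68 at 5 weeks. With CSE 1% it was at 9.70, 9.86 and 9.78 at 1 week, 9.28, 9.74 and 9.91 at 3 weeks, then 9.53, 9.16 and 8.82 at 5 weeks. These arrays lay above all controls of their week at 1 and 3 weeks and overlapped them at 5 weeks.

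With CSE 1%, KRT19 rose by 0.65 at 1 week (standard error 0.15, adjusted p = 0.00829) and by 0.58 at 3 weeks (adjusted p = 0.0104). The 3-week call was lost without control replicate 1 (adjusted p = 0.0795) or CSE replicate 2 or 3 (adjusted p = 0.0541 and 0.0817). At 5 weeks it fell by 0.48 against the controls of the same week (adjusted p = 0.00973), but the value was 0.07 against those of weeks 1 and 3 (adjusted p = 0.793). This call was also lost without control replicate 1 (adjusted p = 0.0605) or CSE replicate 3 (adjusted p = 0.106).

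With CSE 10%, KRT19 was at 9.49, 9.33 and 9.23 at 1 week, 8.57, 8.52 and 8.58 at 3 weeks, then 8.35, 8.49 and 8.30 at 5 weeks. The 1-week arrays overlapped the controls, while the later ones lay below every control array of the series. The differences were 0.22 (adjusted p = 0.374), -0.51 (adjusted p = 0.0122) and -1.27 (adjusted p = 9.14e-08), or -0.72 at 5 weeks against the earlier controls (adjusted p = 0.000103). The 3-week call was lost without control replicate 2 (adjusted p = 0.0906) and under the housekeeping centring (-0.26, adjusted p = 0.11). The effect of CSE 10% was lower at 3 weeks than at 1 week by 0.73 (adjusted p = 0.0286), a call lost without any 1 of 8 of the 12 arrays (adjusted p from 0.05 to 0.0961).

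CSE 5% left KRT19 at 0.26 at 1 week (adjusted p = 0.318) and 0.04 at 3 weeks (adjusted p = 0.888), and lowered it at 5 weeks by 1.09 (adjusted p = 1.15e-06), or by 0.54 against the earlier controls (adjusted p = 0.00286). The nearest genes in level were GATAD2A, LSR and MYADM (r of 0.93, 0.93 and 0.91); KRT7 and KRT8 had r of 0.70 and 0.72 with KRT19.

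KRT80, a type II chain reported at desmosomes, was the keratin that rose with every concentration at 1 week. Control cells were at 7.49, 7.65 and 7.91, and exposed cells at 8.24, 8.38 and 8.42 with CSE 1%, 8.74, 8.57 and 8.43 with CSE 5%, and 8.47, 8.44 and 8.26 with CSE 10%. All 9 exposed arrays lay above the 3 controls. The rises were 0.66 (standard error 0.13, adjusted p = 0.00179), 0.89 (adjusted p = 1.5e-05) and 0.70 (adjusted p = 0.000239), or 1.58-fold, 1.86-fold and 1.63-fold.

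At 3 weeks KRT80 was at 7.79, 8.04 and 7.76 in control cells, 8.32, 8.50 and 8.65 with CSE 1%, 8.31, 8.37 and 8.32 with CSE 5%, and 7.89, 7.85 and 7.81 with CSE 10%. The lower concentrations lay above the controls and the highest lay among them. The differences were 0.62 (adjusted p = 0.00152), 0.47 (adjusted p = 0.0112) and -0.02 (adjusted p = 0.948), and that with CSE 5% was lost without control replicate 3 (adjusted p = 0.055). The effect of CSE 10% was lower at 3 weeks than at 1 week by 0.72 (adjusted p = 0.0125), which was lost without control replicate 1 at 1 week (adjusted p = 0.0503). Housekeeping centring put KRT80 with CSE 10% at 3 weeks at 0.23 (adjusted p = 0.148).

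The 5-week values of KRT80 turned on the controls. Controls were at 8.58, 8.23 and 8.19, CSE 1% at 9.02, 8.64 and 8.39, CSE 5% at 8.28, 8.23 and 8.33, and CSE 10% at 7.91, 8.23 and 7.91. Each exposed group overlapped the 5-week controls, with differences of 0.35, -0.05 and -0.32 (adjusted p = 0.0279, 0.751 and 0.0388). Against the controls of weeks 1 and 3 they were 0.91, 0.51 and 0.24 (adjusted p = 9.11e-07, 0.00127 and 0.116), so that the sign changed with CSE 5% and 10%. With housekeeping centring the last value was 0.44 and was called (adjusted p = 0.00306). The call with CSE 1% against the same week's controls was lost with cyclic loess (0.27, adjusted p = 0.0975) and with a second quantile normalization (0.21, adjusted p = 0.24).

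Single arrays also ended the 5-week calls of KRT80 against the same week's controls. With CSE 1% the call was lost without control replicate 2 or 3 (adjusted p = 0.093 and 0.111) or CSE replicate 1 (adjusted p = 0.247). With CSE 10% it was lost without control replicate 1 (adjusted p = 0.251) or CSE replicate 1 or 3 (adjusted p = 0.132 for each). The genes most like KRT80 in level were CDC25B, SPINDOC and ANKRD13B (r of 0.85, 0.83 and 0.82).

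KRT23, a type I chain of glandular epithelia, ran from 4.70 to 6.06, below the median of every array, which was at least 6.72. Control cells were at 5.39, 5.12 and 5.68 at 1 week, 5.21, 5.17 and 5.29 at 3 weeks, then 5.70, 6.06 and 5.82 at 5 weeks. The 5-week controls lay above all other 33 arrays. At 1 and 3 weeks differences with CSE ran from -0.17 to 0.17 and none was called (adjusted p from 0.454 to 0.994), and each exposed group overlapped its controls. Housekeeping centring put KRT23 with CSE 10% at 3 weeks at 0.41, which was called (adjusted p = 0.0238).

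At 5 weeks KRT23 was at 5.59, 5.51 and 5.33 with CSE 1%, 5.00, 5.44 and 5.21 with CSE 5%, and 5.51, 5.32 and 5.52 with CSE 10%. It was lower than the same week's controls by 0.38, 0.64 and 0.41 (standard error 0.14, adjusted p = 0.0271, 0.000428 and 0.0165). Against the controls of weeks 1 and 3 the values were 0.17, -0.09 and 0.14 (adjusted p = 0.433, 0.643 and 0.416), so none was called and 2 of 3 had the other sign. With housekeeping centring the CSE 10% value against these controls was 0.35 and was called higher (adjusted p = 0.0309). The call with CSE 1% was lost without control replicate 2 (adjusted p = 0.132) or CSE replicate 2 or 3 (adjusted p = 0.0508 and 0.114), and that with CSE 10% without control replicate 2 (adjusted p = 0.0944) or CSE replicate 2 (adjusted p = 0.071). Both calls were also lost with cyclic loess (-0.13 and -0.17, adjusted p = 0.463 and 0.328) and with a second quantile normalization (-0.24 and -0.28, adjusted p = 0.174 and 0.101). KRT23 followed the other keratins little, with r of 0.29 or less, and its nearest genes were LMX1A, PGPEP1L and C3AR1 (r of 0.80 each).

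Control cells were also compared between weeks. The 5-week control arrays stood apart as described above, so time and a difference of these arrays cannot be told apart there. Between 1 and 3 weeks limma called 0 keratins higher and 0 lower, where 6.23% of all clusters were higher and 5.27% lower. At an unadjusted p under 0.05, a threshold not applied to all clusters, 2 of 6 keratins passed. These were KRT8 at 0.13 and KRT18 at 0.14 (adjusted p = 0.163 and 0.125). Between 3 and 5 weeks 4 were higher and 0 lower, where 31.7% of all clusters were higher and 21.8% lower. These were KRT7 (0.27, adjusted p = 0.0345), KRT19 (0.59, adjusted p = 0.00221), KRT80 (0.47, adjusted p = 0.00447) and KRT23 (0.64, adjusted p = 0.000641), while KRT8 and KRT18 were at 0.07 and 0.06 (adjusted p = 0.334 and 0.42). With housekeeping centring KRT8 and KRT18 were called higher too (0.18 and 0.17, adjusted p = 0.0197 and 0.0244), while a second quantile normalization turned their sign (-0.040 and -0.043). The KRT7 call was lost without any 1 of 5 of the 6 arrays, control replicate 2 at 3 weeks being the exception (adjusted p from 0.058 to 0.126), and the KRT80 call without replicate 1 at 5 weeks (adjusted p = 0.054).

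Concentrations were compared with each other within a week. From CSE 1% to 5%, 1 of 6 keratins differed at 1 week (KRT8, -0.23, adjusted p = 0.00851) beside 6.73% of all clusters. At 3 weeks 1 differed (KRT19, -0.53, adjusted p = 0.0333) beside 5.51%, and at 5 weeks 3 differed (KRT7 by -0.44, KRT8 by -0.21 and KRT19 by -0.61, adjusted p = 0.0149, 0.0295 and 0.0188) beside 3.54%. Each of these 5 calls was lost without at least 1 array. For KRT8 at 1 week this was CSE 5% replicate 1 (adjusted p = 0.0541). For KRT19 at 3 weeks it was CSE 1% replicate 2 or 3 (adjusted p = 0.143 and 0.226) or CSE 5% replicate 1 or 3 (adjusted p = 0.172 and 0.113). At 5 weeks it was CSE 1% replicate 1 or CSE 5% replicate 2 for KRT7 (adjusted p = 0.163 and 0.114). For KRT19 it was CSE 1% replicate 1 or 2 or CSE 5% replicate 2 or 3 (adjusted p from 0.0575 to 0.228), and for KRT8 any of the 6 arrays but CSE 1% replicate 3 (adjusted p from 0.0519 to 0.235). Housekeeping centring also ended the KRT8 calls at 1 week (-0.12, adjusted p = 0.299) and 5 weeks (-0.21, adjusted p = 0.0813). The KRT8 call at 5 weeks was lost with cyclic loess (adjusted p = 0.06) and with a second quantile normalization (adjusted p = 0.087) too.

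From CSE 5% to 10%, limma called 0 of 6 keratins at 1, 3 and 5 weeks, where 3.27%, 0.967% and 2.22% of all clusters were called. At an unadjusted p under 0.05, a threshold not applied to all clusters, 2, 3 and 2 keratin differences passed. The largest of these differences was KRT19 at 3 weeks (-0.55, 95% interval -0.86 to -0.24, adjusted p = 0.081), followed by KRT80 at 3 weeks (-0.49, 95% interval -0.76 to -0.22, adjusted p = 0.0759). For KRT7 at 5 weeks the interval ran from -0.04 to 0.41. KRT18 at 1 week, at -0.19 (adjusted p = 0.0788), was called among the brightest 60% of clusters (adjusted p = 0.0493), with a trended and robust prior (adjusted p = 0.0273), with the mean of its clusters (-0.24, adjusted p = 0.0199) and in its second cluster (-0.29, adjusted p = 0.00725). KRT8 at 5 weeks, at -0.20 (adjusted p = 0.0587), was called among the brightest 60% (adjusted p = 0.0371) and with the trended and robust prior (adjusted p = 0.0154). The test does not show that these concentrations act alike.

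The effect of exposure was also compared between weeks. From 1 to 3 weeks it differed for 0 of 6 keratins with CSE 1% by limma, 1 with CSE 5% and 3 with CSE 10%, where 4.90%, 3.23% and 9.13% of all clusters did. With CSE 1%, 2 keratins had an unadjusted p under 0.05, a threshold not applied to all clusters. From 1 to 5 weeks the effect differed for 4, 5 and 4 keratins, where 21.0%, 30.7% and 29.6% of all clusters did. Every one of these 17 differences was towards a lower value at the later week, while the shares of all clusters count either direction. All 17 use the same 1-week controls, and those at 5 weeks also the same 5-week controls, so they are not independent. From 1 to 5 weeks the median over all clusters was also negative, at -0.09, -0.12 and -0.12 with CSE 1%, 5% and 10%. From 1 to 3 weeks it was 0.03, -0.0026 and 0.04. Of the 17, 13 compare 5 weeks with 1 week, and 7 of these 13 still passed with the 5-week effect taken against the controls of weeks 1 and 3, an alternative chosen after seeing the data. It holds no 5-week controls, so it cannot tell exposure from time in culture. The share of all clusters that pass with this alternative was not computed. The largest of the 17 was KRT19 with CSE 10%, whose effect was lower at 5 weeks than at 1 week by 1.50 (adjusted p = 1.06e-05), or by 0.94 with the earlier controls (adjusted p = 0.000307).

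The other keratins and the partners of the filaments were read from lists of genes, described here for CSE 10%. For some named genes the 5-week value is given against the earlier controls alone. Such a value does not tell exposure from time in culture, nor whether the gene differed from the same week's controls. Of all clusters 21.9% were higher and 39.6% lower at 5 weeks against the same week's controls, 15.0% and 16.0% against the controls of weeks 1 and 3, and 14.0% and 12.5% at 3 weeks, and each count below is to be read beside these shares. Of 24 other type I keratins, 0 were higher and 14 lower at 5 weeks against the same week's controls, but 1 and 3 against the controls of weeks 1 and 3, and 1 and 1 at 3 weeks. The counts against the earlier controls are thus at or below the share over all clusters. KRT10, a keratin of upper epidermal layers, fell by 1.08 (adjusted p = 2.05e-10) and by 1.49 against the earlier controls (adjusted p = 9.54e-15), although with CSE 1% at 1 week it had risen by 2.08 (adjusted p = 6.3e-15). Against the earlier controls KRT14 and KRT35 fell by 0.43 and 0.32 (adjusted p = 0.000511 and 0.0318), and KRT20, an intestinal keratin, rose by 0.40 (adjusted p = 0.0225).

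Of 17 other type II keratins, 0 were higher and 14 lower at 5 weeks, and 0 and 3 against the earlier controls, the latter near the 16.0% of all clusters. The 3 were KRT79 (-0.28, adjusted p = 0.00952), KRT75 (-0.33, adjusted p = 0.0115) and KRT74 (-0.21, adjusted p = 0.0268). Of 13 other intermediate filament genes, 2 were higher and 7 lower at 5 weeks, and 3 and 3 against the earlier controls. VIM, which encodes vimentin of mesenchymal cells, rose by 0.81 against the earlier controls (adjusted p = 2.78e-10) and INA, a neuronal filament, by 0.73 (adjusted p = 1.28e-08). NEFL and PRPH, further neuronal filaments, fell by 0.83 and 0.53 (adjusted p = 4.54e-08 and 2.62e-05).

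Among 16 genes of desmosomes and filament linkers, 6 were higher and 8 lower at 5 weeks, 3 and 9 against the earlier controls, and 4 and 4 at 3 weeks. Against the earlier controls PKP2 and PKP3, plaque proteins of desmosomes, fell by 0.96 and 0.86 (adjusted p = 7.31e-11 and 2.95e-07), DSP, desmoplakin, by 1.00 (adjusted p = 1.49e-09) and JUP, plakoglobin, by 0.75 (adjusted p = 1.71e-06). At 3 weeks DSP had fallen by 0.50 (adjusted p = 0.000703) and JUP by 0.47 (adjusted p = 0.00387), whereas DST, dystonin, and DSC3, a desmosomal cadherin, had risen by 1.61 and 0.76 (adjusted p = 0.000254 and 0.000921). Of 20 genes that bind keratins or take part in their turnover, 9 were higher and 5 lower at 5 weeks, and 1 and 4 against the earlier controls. SQSTM1, the p62 protein of aggregates, rose by 0.56 (adjusted p = 2.65e-07), while CASP9, TGM2 and STUB1 fell by 0.80, 0.57 and 0.52 (adjusted p = 3.47e-08, 4.93e-06 and 0.00022).

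**Figure D4:**
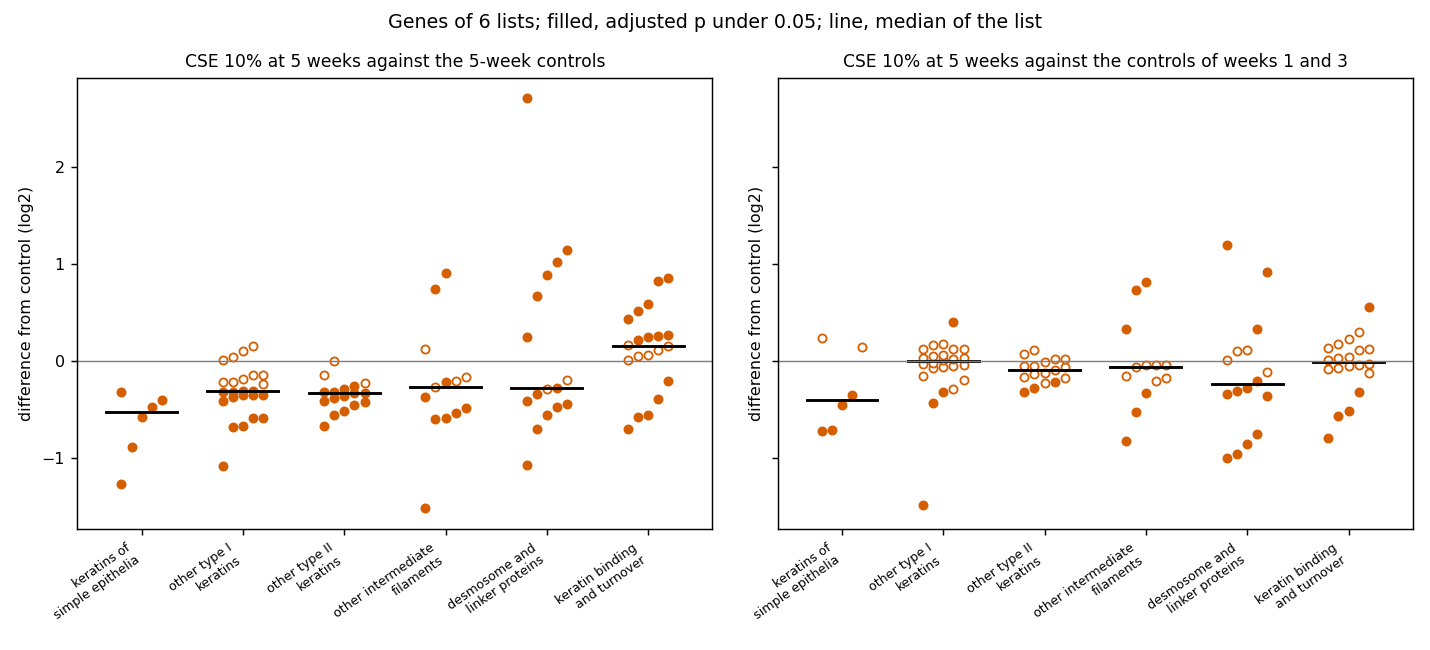
Differences between CSE 10% and control cells at 5 weeks (log2), 1 point per gene, for the keratins of simple epithelia and 5 lists of other genes, against the 5-week controls (left) and against the controls of weeks 1 and 3 (right); filled points passed an adjusted p of 0.05 and lines are list medians. The medians of the other type I and type II keratins are -0.32 and -0.33 on the left and -0.01 and -0.10 on the right, where the median of the 6 keratins of simple epithelia is -0.40.

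Markers of cell identity were read beside the keratins. Of 6 epithelial markers, CSE 10% at 5 weeks gave 0 higher and 3 lower against the same week's controls and 0 and 4 against the earlier ones, where EPCAM fell by 1.74 (adjusted p = 5.82e-12), CDH1, E-cadherin, by 0.52 (adjusted p = 1.36e-06), MUC1 by 0.60 (adjusted p = 0.000661) and CLDN4 by 0.41 (adjusted p = 0.00201). The shares of all clusters called lower were 39.6% and 16.0%. Against the same week's controls EPCAM was at -1.02 (adjusted p = 1.25e-06), MUC1 at -0.56 (adjusted p = 0.00215), CLDN4 at -0.34 (adjusted p = 0.0127) and CDH1, which did not pass, at 0.02 (adjusted p = 0.818). The mean of the 6 epithelial markers ran from 7.99 with CSE 10% at 5 weeks to 8.82 with CSE 1% at 1 week. Against the earlier controls, limma with CSE 10% at 5 weeks called 0 of 8 alveolar type II markers and 0 of 5 endothelial markers, with 1 of each list at an unadjusted p under 0.05. It called 0 higher and 1 lower of 8 fibroblast markers and 1 higher and 1 lower of 5 leukocyte markers. Their part in the keratin differences was not tested.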

How the data were processed

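The 36 Affymetrix arrays had been background-corrected, normalized and summarised by the authors with RMA (package oligo), and the values were deposited on the log2 scale. The submitters' notes list R 2.11.0 beside RMA and limma. For the annotation, a genome build was not given in the sources used. RMA is meant to make arrays alike in distribution, which can remove a shift of most genes. The deposited arrays were not fully alike, with medians from 6.72 to 6.91. With CSE 10% at 5 weeks, a median difference of -0.17 over all clusters was left. The deposited log2 values were used as they stand. Of 33297 transcript clusters, 19460 carried 1 symbol, 1754 several and 12083 none, and for a gene with several clusters the brightest on average was used.

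A mean per group was fitted with limma 3.58.1 in R 4.3.3 (24 residual degrees of freedom), with Benjamini-Hochberg adjustment over all clusters and a threshold of 0.05. The fit was tested on simulated data. The keratins, lists and tests were chosen with earlier results of these data known. Named are all members, up to 4 genes of each list with the smallest p among those that passed, and for each member the 3 genes with the highest Pearson's r. The marker levels of CDH1, EPCAM, ELF3, ETV5, ABCA3, SFTPD, SFTPC and NKX2-1 and the KRT10 value with CSE 1% were chosen after they were seen. Promoter sequences come from RefSeq (GRCh38.p14). Alternatives changed the call rule, arrays, normalization, scaling, filter, prior, pairing and reference. Precision is limited by 3 arrays per group.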

Additional observations from a re-analysis of the deposited data

Results flagged for a closer look

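For 17 member and exposure pairs the effect of exposure differed between weeks, by limma's test of that difference (log2, later week minus 1 week, each value lower at the later week). At 3 weeks these were KRT7 with CSE 5% (-0.54, adjusted p = 0.0468) and with CSE 10% (-0.79, adjusted p = 0.000828), KRT19 with CSE 10% (-0.73, adjusted p = 0.0286) and KRT80 with CSE 10% (-0.72, adjusted p = 0.0125). At 5 weeks with CSE 1% they were KRT7 (-0.43), KRT8 (-0.31), KRT18 (-0.27) and KRT19 (-1.13), with adjusted p of 0.0456, 0.00752, 0.0208 and 0.000587. With CSE 5% they were KRT7 (-0.95), KRT8 (-0.29), KRT18 (-0.25), KRT19 (-1.35) and KRT80 (-0.94), with adjusted p of 6.91e-05, 0.00782, 0.0242, 6.2e-05 and 0.000641. With CSE 10% they were KRT7 (-0.85), KRT8 (-0.37), KRT19 (-1.50) and KRT80 (-1.02), with adjusted p of 0.000195, 0.00134, 1.06e-05 and 0.000224. Leaving out 1 array ended 6 of the 17 calls. For KRT7 with CSE 5% at 3 weeks any 1 of 8 of the 12 arrays did so (adjusted p from 0.0643 to 0.161), for KRT19 with CSE 10% at 3 weeks 8 (0.05 to 0.0961), and for KRT80 with CSE 10% at 3 weeks control replicate 1 at 1 week (0.0503). For KRT7 with CSE 1% at 5 weeks 9 did so (0.0562 to 0.149), for KRT18 with CSE 1% 4 (0.0535 to 0.0613) and for KRT18 with CSE 5% 4 (0.0526 to 0.0738). Scaling ended calls too. Housekeeping centring ended KRT7 with CSE 5% at 3 weeks (adjusted p = 0.0874). It also ended KRT7, KRT8 and KRT18 with CSE 1% at 5 weeks (adjusted p = 0.0553, 0.0531 and 0.104). A second quantile normalization ended KRT7 and KRT18 with CSE 1% and KRT18 with CSE 5% at 5 weeks (adjusted p = 0.0594, 0.0649 and 0.0627). Cyclic loess ended KRT7 with CSE 5% at 3 weeks (adjusted p = 0.0745).

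For the step from 1 to 5 weeks the median over all clusters was also negative (-0.09, -0.12 and -0.12 with CSE 1%, 5% and 10%). All the flagged differences use the same 1-week controls, and the 13 at 5 weeks also rest on the same 5-week controls, so they are not independent. With the 5-week effect taken against the controls of weeks 1 and 3, which was chosen after seeing the data, 7 still passed: KRT7 with CSE 5% (-0.78) and 10% (-0.67), KRT8 with CSE 10% (-0.24), KRT19 with CSE 1%, 5% and 10% (-0.58, -0.79 and -0.94) and KRT80 with CSE 10% (-0.46). The other 6 kept their sign and did not pass: KRT7, KRT8 and KRT18 with CSE 1% (-0.26, -0.18 and -0.14) and KRT8, KRT18 and KRT80 with CSE 5% (-0.16, -0.12 and -0.39). With no 5-week controls in it, this alternative cannot tell exposure from time in culture. The share of all clusters that pass with this alternative was not computed.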

How the results depend on the processing

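The number of arrays, 3 per group, limits which of the small differences of KRT8 and KRT18 can be called. Of 84 differences of the 6 keratins from control or between control weeks, cyclic loess changed the call of 4 and no sign. A second quantile normalization changed 11 calls and 2 signs. Housekeeping centring changed 16 calls with the sign kept, and 10 signs. Among those 10, KRT8 with CSE 5% at 3 weeks also lost its call (0.04, adjusted p = 0.692). The cause was not tested.

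By the study's rule of a log2 fold change beyond 1 with B, the log-odds of a change, above 0 or above 3, 0 members were called with any concentration at 1 or 3 weeks, with CSE 1% at 5 weeks, between control weeks 5 and 3, between concentrations, or against the controls of weeks 1 and 3. By either rule 2 were called with CSE 5% at 5 weeks, 1 with CSE 10%, and 4 effects differed between weeks. A separate fit per week called 3 with CSE 1% at 5 weeks and 2 between concentrations. A second quantile normalization called 2 with CSE 1% at 5 weeks and 2 in controls between weeks 1 and 3. The controls of weeks 1 and 3 gave 2 with CSE 1% at 5 weeks. Housekeeping centring called 1 with CSE 10% at 1 week, 2 with CSE 5% and 2 with CSE 10% at 3 weeks (in the latter KRT7 lower and KRT23 higher), 3 with CSE 5% at 5 weeks against the earlier controls and 3 between concentrations. A trended and robust prior called 8 between concentrations. The 5-week effect against earlier controls, chosen after seeing the data, left 7 of the 13 differences between 5 weeks and 1 week. With the 4 between 3 weeks and 1 week, which it does not touch, 11 effects differed between weeks. Apart from the controls of weeks 1 and 3, no share of all clusters was computed under these settings or with 1 array left out. These counts therefore describe how the keratin calls move, not how keratins compare with other genes.

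Leaving out 1 array at a time gave 2, 1 and 2 to 3 members changed with CSE 1%, 5% and 10% at 1 week, 2 to 3, 3 to 4 and 3 to 4 at 3 weeks, and 3 to 5, 5 and 5 to 6 at 5 weeks. It gave 0 in controls between weeks 1 and 3, 2 to 4 between weeks 3 and 5, and 2, 5 and 4 against the earlier controls. It gave 2 to 9 between concentrations and 11 to 20 effects that differed between weeks, the lowest of 11 without control replicate 1 at 1 week.

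Signs turned under housekeeping centring for KRT18 with CSE 1% at 5 weeks against earlier controls (0.060) and with CSE 5% at 1 week (0.0091). They turned for KRT8 with CSE 5% at 1 week (0.0036), with CSE 1% and 5% at 3 weeks (0.026 and 0.039), with CSE 1% at 5 weeks against earlier controls (0.087) and between CSE 1% and 5% at 3 weeks (0.013). They turned for KRT23 with CSE 1% at 3 weeks (0.029), with CSE 5% at 5 weeks against earlier controls (0.037) and between CSE 1% and 5% at 1 week (0.047), for KRT7 with CSE 10% at 1 week (0.059) and for KRT80 with CSE 10% at 3 weeks (0.23). Between control weeks 3 and 5, KRT8 and KRT18 turned under a second quantile normalization (-0.040 and -0.043) and KRT18 with the mean of its clusters (-0.0038). With the controls of weeks 1 and 3, KRT19 with CSE 1% (0.072), KRT23 with CSE 1% and 10% (0.17 and 0.14) and KRT80 with CSE 5% and 10% (0.51 and 0.24) turned at 5 weeks.

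Leaving out 1 array turned the sign of uncalled values. These were KRT19 with CSE 1% at 5 weeks against earlier controls (-0.11 to 0.25), between CSE 5% and 10% at 1 week (-0.11 to 0.022), with CSE 5% at 3 weeks (-0.079 to 0.14) and between control weeks 1 and 3 (-0.17 to 0.044). For KRT23 they were CSE 1% at 1 week (-0.24 to 0.039) and 3 weeks (-0.23 to 0.099), CSE 10% at 1 week (-0.13 to 0.15), CSE 5% at 3 weeks (-0.12 to 0.071), CSE 5% at 5 weeks against earlier controls (-0.20 to 0.016) and CSE 5% against 1% at 3 weeks (-0.097 to 0.23). The others were KRT7 with CSE 10% at 1 week (-0.13 to 0.050), KRT8 with CSE 1% at 5 weeks against earlier controls (-0.086 to 0.0044) and KRT80 with CSE 10% at 3 weeks (-0.070 to 0.070) and CSE 5% at 5 weeks (-0.12 to 0.073).

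Same-numbered arrays of an exposed group and its control deviated together in 6 of 27 pairs (r over 0.1; range -0.21 to 0.50), and all pairs of a comparison did so in 1 of 9 comparisons, so the numbers were not taken to pair the arrays. With the replicate block, 0 of 84 calls changed, and 2 of the 17 effects that differed between weeks no longer passed, KRT7 with CSE 5% at 3 weeks (-0.54, adjusted p = 0.061) and with CSE 1% at 5 weeks (-0.43, adjusted p = 0.0548).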
